A study of Caenorhabditis elegans with 3 samples.

Results

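The genes described here encode the subunits of RNA polymerases I, II and III, of TFIID and of Mediator in Caenorhabditis elegans, and the question was which of their promoters carried LIN-15B. They were chosen by symbol: protein-coding genes named rpb-, rpc-, rpoa-, rpac-, taf- or mdt- with a number, plus ama-1. This gave 59 of 19973 protein-coding genes, of which 22 were polymerase genes, 17 TFIID genes and 20 Mediator genes. LIN-15B was mapped by chromatin immunoprecipitation and sequencing (ChIP-seq) in 1 group of 3 biological replicates, whole L1 larvae of both sexes pooled. All carried the genotype unc-119(tm4063) III; wgIs184 (strain OP184), where wgIs184 is an insertion that targets lin-15B. The sample descriptions name eGFP-lin-15B as the target, and the antibody label names lin-15B. The labels give the CGC as source of replicates 1 and 2 and the laboratory itself as source of replicate 3, and for replicate 3 alone they name microtip sonication and a GFP-FLAG tag at the C-terminus. There was no untreated or control sample among the 3, so nothing was compared between conditions. The labels state neither the promoter that drives the transgene nor the state of the endogenous gene, and peak lists measure no expression by which the larval stage could be checked.

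RNA polymerase II transcribes protein-coding genes, polymerase I the large ribosomal RNA precursor and polymerase III transfer RNA and other small RNAs. TFIID is the complex of the TATA-binding protein and its associated factors (TAFs) that recognises the core promoter, and Mediator relays signals from DNA-bound factors to polymerase II through head, middle, tail and kinase modules. LIN-15B, a nuclear protein with a THAP-type zinc finger, belongs to the synMuv B class, which is known for keeping germline genes off in somatic cells. Many worm genes lie in operons, where 1 promoter ahead of the first gene serves several genes in a row, and many transcripts are trans-spliced, so an annotated start can lie downstream of where transcription begins.

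LIN-15B lay at the promoters of 12 of the 59 genes, led by the TFIID gene taf-4, the polymerase II gene rpb-11 and the Mediator gene mdt-9. A gene is called bound when a peak seen reproducibly in all 3 replicates had its summit from 500 bp upstream to 200 bp downstream of a transcript start. Reproducible means an irreproducible discovery rate (IDR), the expected share of irreproducible peaks among those ranked as well, of 0.05 or less in each of the 3 pairs of replicates. The bound genes were 5 of 22 polymerase genes (22.7%), 3 of 17 TFIID genes (17.6%) and 4 of 20 Mediator genes (20%), 20.3% in all. Of all protein-coding genes, 5.25% were bound. The 12 genes were bound through 12 separate peaks, which ranked from 100 to 1000 among the 30000 of the series-wide list, where rank 1 is the strongest. A peak counted for every gene in reach, and when it counted only for the nearest transcript start, 7 of the 59 were bound, with 3 polymerase genes, 1 TFIID gene and 3 Mediator genes, against 3.78% of all protein-coding genes.

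The 101 bp around the summit are printed for 2 bound genes of each group, to let the promoters be compared. They were taken in order of mean rank after leaving out 4 of the 12 genes by location. They are from the RefSeq sequence of WBcel235, which is ce11, and each reads 5′ to 3′ along the strand of its gene. Capitals mark an E2F-like word (TTCCCGC or TTCGCGC or TTGCCGC or TTGGCGC) or the word GAGCGC, on either strand, and words of both kinds can share letters. The coordinates are chrII:14059917-14060017 (plus strand) for rpb-11, chrIV:9147109-9147209 (minus) for rpb-12, chrIII:10505329-10505429 (minus) for taf-11.3, chrIV:3694818-3694918 (minus) for taf-6.2, chrIV:13386221-13386321 (plus) for mdt-9 and chrII:10301094-10301194 (plus) for mdt-22.
rpb-11: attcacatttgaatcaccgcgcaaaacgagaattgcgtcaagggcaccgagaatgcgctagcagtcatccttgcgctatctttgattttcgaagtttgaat
rpb-12: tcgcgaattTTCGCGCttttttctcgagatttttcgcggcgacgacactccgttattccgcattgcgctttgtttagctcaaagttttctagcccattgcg
taf-11.3: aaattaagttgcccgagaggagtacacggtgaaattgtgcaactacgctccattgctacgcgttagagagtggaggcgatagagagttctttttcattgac
taf-6.2: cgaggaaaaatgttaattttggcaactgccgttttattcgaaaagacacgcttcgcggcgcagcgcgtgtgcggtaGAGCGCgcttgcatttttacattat
mdt-9: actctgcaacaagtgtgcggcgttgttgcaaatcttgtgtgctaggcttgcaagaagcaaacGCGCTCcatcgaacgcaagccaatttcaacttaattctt
mdt-22: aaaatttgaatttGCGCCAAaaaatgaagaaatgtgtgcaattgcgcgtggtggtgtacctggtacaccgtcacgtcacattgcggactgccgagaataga
The rpb-12 stretch holds 13 CG dinucleotides and that of taf-6.2 holds 12, while those of taf-11.3 and mdt-9 hold 6 each. The stretches of rpb-11 and mdt-22 hold 8 and 7. GC content ran from 44.6% (rpb-11) to 47.5% (rpb-12 and taf-6.2). The marked word was TTCGCGC at rpb-12, GAGCGC at taf-6.2 and, on the other strand, the complements of GAGCGC at mdt-9 and of TTGGCGC at mdt-22. No such word stands in the stretches of rpb-11 and taf-11.3.

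In windows of 201 bp around the summits of all 12 bound genes, the CpG count divided by that expected from base composition averaged 1.65 ± 0.390 (SD over 12 windows), against 1.49 ± 0.380 (SD over 756 windows) at all reproducible promoter peaks. GC content was 40.1% ± 7.88 against 41.2% ± 6.44. Neither difference was tested. The E2F-like words stood in 4 of the 12 windows, those of taf-4, mdt-22, rpb-7 and rpb-12 (33.3%, against 26.9% of all reproducible promoter peaks), and GAGCGC in 2, those of mdt-9 and taf-6.2 (16.7% against 32.3%). In windows of the same length centred 185 bp upstream of every annotated gene start, the median position for bound genes, the E2F-like words stood in 1 of the 12 bound genes (8.33%) and in 6.97% of all protein-coding genes. GAGCGC stood there in 2 of the 12 (16.7%) and in 3.95% of all. Among all 1048 bound genes the shares there were 17.3% for the E2F-like words and 17.8% for GAGCGC. A match of these letters is not a binding site. The 47 genes that were not bound had a CpG ratio of 1.21 ± 0.516 (SD over 47 windows) at that common position, and the bound ones 1.29 ± 0.349 (SD over 12 windows). At the same position the mean ratio was 1.06 over all protein-coding genes and 1.45 over all 1048 bound genes. These differences were not tested.

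Among the polymerase genes, LIN-15B was strongest by mean rank at rpb-11, rpb-3 and rpb-7, all genes of polymerase II subunits. Other genes of small polymerase II subunits ranked far lower: rpb-9 ranked 9879, 7448 and 13363 in replicates 1, 2 and 3. rpb-4 had no promoter peak in replicate 1 and ranked 13999 and 1771 in replicates 2 and 3. The strongest promoter peak of rpb-11 (WBGene00012187, chromosome II, 14060085 to 14060624), which encodes a subunit that pairs with RPB-3 in the assembly of the enzyme, ranked 181, 182 and 169 in replicates 1, 2 and 3. The replicates hardly differed, with a mean rank of 177 ± 7.23 (SD, n = 3), and their summits lay within 9 bp of each other, 118 bp to 127 bp upstream of the start between genes. The peak was in reach of no other gene.

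The gene of its partner, rpb-3 (WBGene00007971, chromosome I, 8728764 to 8730054), had promoter peaks of rank 252, 244 and 145. Replicate 3 placed it highest, and the other two nearly level. Its summit, 152 bp upstream in the series-wide list, lay 125 bp upstream of pas-4, a proteasome subunit gene on the other side, so the peak does not tell the pair apart. The stalk subunit gene rpb-7 (WBGene00021845, chromosome I, 3031338 to 3032938) ranked 609, 313 and 413. Its summit lay on the start itself, 7 bp inside the first exon in the series-wide list, and 4 bp upstream of Y54E10BR.2.

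The other bound polymerase genes stood lower by mean rank, although rpb-12 stood above rpb-7 in replicates 1 and 3. rpb-12 (WBGene00009078, chromosome IV, 9146334 to 9146869), whose yeast counterpart is shared by all 3 polymerases, ranked 453, 1117 and 291, so replicate 2 stood well below the others. The series-wide summit lay 290 bp upstream of it and 309 bp upstream of aly-2, a gene of the mRNA export factor family. rpc-1 (WBGene00004411, chromosome IV, 7160135 to 7165748), the gene of the largest polymerase III subunit, ranked 1169, 1365 and 1176. It was the weakest bound gene, in reach of no other gene's start, with a mean rank of 1237 ± 111 (SD, n = 3), and it was not bound at an IDR of 0.01.

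None of the 4 rpoa- genes of polymerase I was bound, and neither was ama-1, the gene of the largest polymerase II subunit. The strongest promoter peaks of ama-1 ranked 13196 and 13377 in replicates 1 and 3, and replicate 2 had none. rpb-2, the gene of the second largest subunit, stood at 28129 in replicate 1 and at 7463 in replicate 3. In the same replicates rpoa-1, the gene of the largest polymerase I subunit, stood at 5605 and 11625, and both lacked a promoter peak in replicate 2. Between replicates 1 and 3 the summits lay 561 bp apart at ama-1 and 15764 bp apart at rpoa-1. The second-largest-subunit gene rpoa-2 had rank 22770 in replicate 2 and 2375 in replicate 3. rpc-2, the corresponding gene of polymerase III, and rpc-25 had no listed promoter peak in any of the 4 lists. The lists hold background peaks by design, so a rank this low is not a call of binding.

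Split by gene length, short and long polymerase genes did not keep 1 order across the counts. Of the 10 polymerase genes of at most 1000 bp, 2 were bound (20%), and of the 12 longer ones 3 were (25%), against 5.52% and 5.19% of all short and long protein-coding genes. Among the strongest 2000 of the series-wide list, 7 of the 10 short and 3 of the 12 long ones had a promoter peak, against 9.18% and 9.87%. Among the strongest 926 of replicate 2 it was 1 of 10 and 2 of 12. The split was chosen after the ranks were seen, and the difference was not tested.

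The TFIID genes held the single strongest member. The promoter peak of taf-4 (WBGene00006385, chromosome I, 382826 to 388564), the gene of a TAF known to be needed for much of transcription in early worm embryos, ranked 94, 66 and 146. Every replicate placed it near its strongest 100, with a mean rank of 102 ± 40.6 (SD, n = 3). The summit lay 301 bp upstream of the start, between genes and in reach of no other start, and taf-4 was not counted as bound when promoters were cut to 250 bp upstream and 100 bp downstream.

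taf-11.3 (WBGene00006395, chromosome III, 10503961 to 10505250), 1 of 3 worm genes for the histone-fold factor TAF11, ranked 117, 291 and 228. Its series-wide summit lay 129 bp upstream, and 101 bp upstream of urm-1, a gene of a ubiquitin-related modifier. taf-6.2 (WBGene00021363, chromosome IV, 3687307 to 3694733), a gene for another histone-fold factor, TAF6, ranked 851, 515 and 587, with the summit 135 bp upstream and 67 bp upstream of Y37E11AL.3. In both cases the other gene was nearer to the summit. The copies of the same factors differed: taf-11.2 had no listed promoter peak, taf-11.1 had 1 of rank 18488 in replicate 2 only, and taf-6.1 ranked 24673, 3226 and 11346. The replicate summits at taf-6.1 spanned 1930 bp, so these ranks do not belong to 1 site.

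Of the remaining TFIID genes, taf-2, taf-13 and taf-7.1 had no listed promoter peak in any list, like taf-11.2. taf-1, the gene of the largest subunit, had 1 promoter peak, of rank 5102 in replicate 3. The other weakly ranked TFIID genes were taf-5, taf-9 and taf-12.

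The bound Mediator genes encode head and middle subunits and MED26. mdt-9 (WBGene00014938, chromosome IV, 13386380 to 13387361), the gene of a middle-module subunit, ranked 170, 105 and 289. These ranks overlap with those of rpb-3 and taf-11.3. The series-wide summit lay 109 bp upstream of mdt-9 and in reach of 2 other starts, 53 bp upstream of Y62E10A.23 and 180 bp upstream of Y62E10A.20. mdt-22 (WBGene00007022, chromosome II, 10301216 to 10301888), the gene of a head subunit, ranked 149, 351 and 275. It lies inside clpp-1, which runs the other way, and the summit, 72 bp upstream of mdt-22, fell in an intron of clpp-1 with no other start in reach.

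mdt-26 (WBGene00016115, chromosome II, 5661181 to 5665243) encodes MED26, which in mammals links Mediator to elongation factors. It ranked 320, 353 and 1137, so replicate 3 stood apart with a rank more than 3 times as far down the list. Its summit was 78 bp upstream, and 317 bp upstream of ift-43. mdt-18 (WBGene00007018, chromosome I, 6492720 to 6495253), a head subunit gene, ranked 946, 955 and 680. Its summit lay 142 bp upstream of an internal transcript start, in an exon of the longer transcripts, and 301 bp upstream of uri-1.

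Of the 20 Mediator genes, 8 had no listed promoter peak in any list: mdt-8, mdt-15, mdt-17, mdt-19, mdt-20, mdt-21, mdt-29 and mdt-30. Among them, mdt-15 is known as a coactivator of fat metabolism genes. Polymerase had 2 such genes of 22 and TFIID 4 of 17. Over all protein-coding genes, 40.3% had no listed promoter peak, so the Mediator share of 40% is that of the genome and the share over all 59 genes, 23.7%, lies below it. A further 21 of the 59 had listed promoter peaks outside the strongest 2000 of every replicate. For 19 of them the best replicate rank ran from 2375 to 22202, and mdt-11 and taf-5 had a promoter peak in the series-wide list only.

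**Figure D1:**
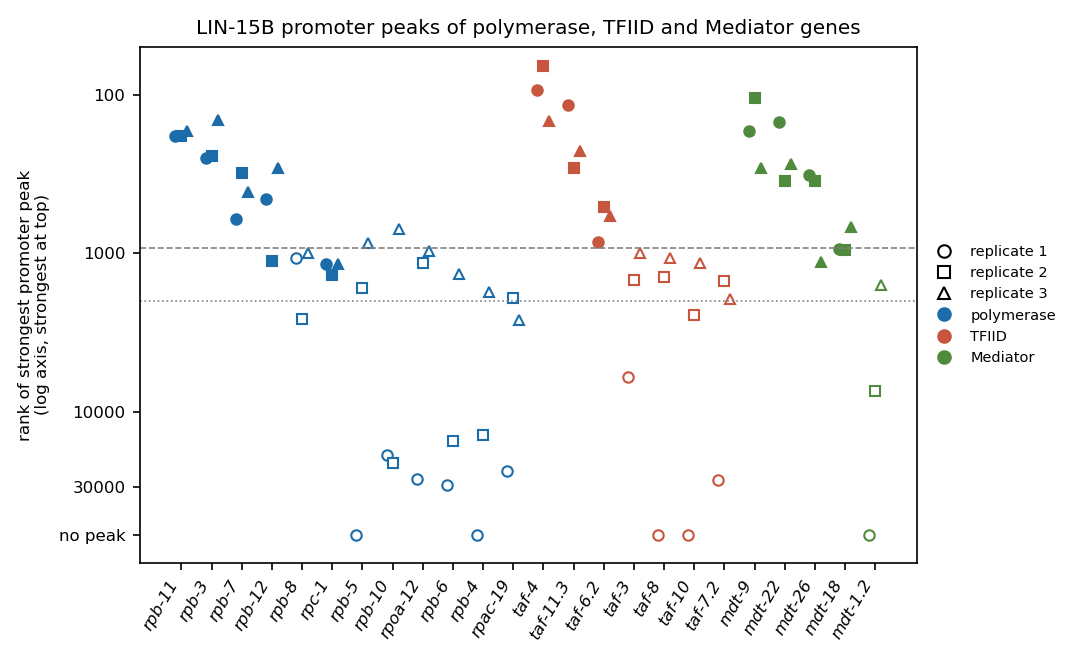
Rank of the strongest promoter peak in each replicate (log axis, strongest at the top) for the 24 genes with a promoter peak among the strongest 2000 of at least 1 replicate; filled symbols are bound genes, the dashed and dotted lines mark ranks 926 and 2000, and "no peak" means that the list has none in the promoter. The 12 bound genes lie above or near the dashed line in all replicates, while most open circles (replicate 1) lie at the bottom.

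A second set of 12 genes had a promoter peak among the strongest 2000 of at least 1 replicate but was not bound, which made 24 of 59 with such a peak (40.7%, against 12.5% of all protein-coding genes). Of these 12, 11 had it in replicate 3, 6 in replicate 2 and 1 in replicate 1. Replicate 1 also had the fewest peaks whose q score reached 2, with 538 against 3083 and 2206 in replicates 2 and 3, and the part of this in the calls was not tested. Without replicate 1, 20 of the 59 genes were bound (33.9%, against 9.21% of all protein-coding genes), and the gain was 4 polymerase genes and 4 TFIID genes. Here only the pair of replicates 2 and 3 had to pass, so the counts could only stay or rise. The peaks themselves still came from the series-wide list of all 3 replicates. Mediator stayed at 4 of 20, while polymerase reached 9 of 22 and TFIID 7 of 17.

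The genes gained were rpb-5, rpb-8, rpac-19 and rpoa-12 among the polymerase genes and taf-3, taf-7.2, taf-8 and taf-10 among those of TFIID. rpb-8 came closest in all 3 replicates, with ranks 1081, 2622 and 996, and missed the threshold in the pair of replicates 1 and 2 only (IDR 0.0801). It was bound at an IDR of 0.1 and without replicate 2. rpb-5 ranked 1658 in replicate 2 and 863 in replicate 3 and had no promoter peak in replicate 1. rpoa-12, a gene of a small polymerase I subunit, ranked 1155 and 972 in replicates 2 and 3 and 26504 in replicate 1.

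The TFIID genes gained ranked best in replicates 2 and 3. taf-8, a gene of the histone-fold part of TFIID, ranked 1405 and 1068 in replicates 2 and 3, and taf-10 ranked 2458 and 1160, with no promoter peak in replicate 1 for either. taf-3, whose product is known in mammals to read methylated histone H3, is X-linked and ranked 6029, 1479 and 1005. taf-7.2 ranked 27219, 1496 and 1946. In all 4 of them replicate 1 was the lowest or lacked the peak.

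In 4 genes the strong peak was in replicate 3 alone and no pair of replicates passed. rpb-10 ranked 18824, 21080 and 704, and rpb-6 ranked 28912, 15291 and 1350. rpb-4 and mdt-1.2 lacked a promoter peak in replicate 1 and ranked 13999 and 7374 in replicate 2 and 1771 and 1589 in replicate 3. These were strong in the replicate whose labels differ in stock, fragmentation and tag, and those differences cannot be told apart with 1 replicate.

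The genes for the 5 subunits that yeast polymerases I, II and III share each had a promoter peak among the strongest 2000 of the series-wide list: rpb-12 at 430, rpb-8 at 938, rpb-5 at 1084, rpb-10 at 1091 and rpb-6 at 1954. Of all protein-coding genes, 9.75% had such a peak, and of the 59 genes 21 did (35.6%). Only rpb-12 of the 5 was bound, and rpb-10 and rpb-6 had a strong peak in replicate 3 alone. With the 2 rpac- genes added, 2, 3 and 5 of 7 had a promoter peak among the strongest 2000 of replicates 1, 2 and 3. Over all protein-coding genes those shares were 6.45%, 8.97% and 10.2%. The 2 rpac- genes, shared by polymerases I and III in yeast, differed: rpac-19 had a series-wide rank of 3346 and ranks 23816, 1911 and 2657 in the replicates, and rpac-40 had ranks 5820 and 4899 in replicates 2 and 3 only.

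**Figure D2:**
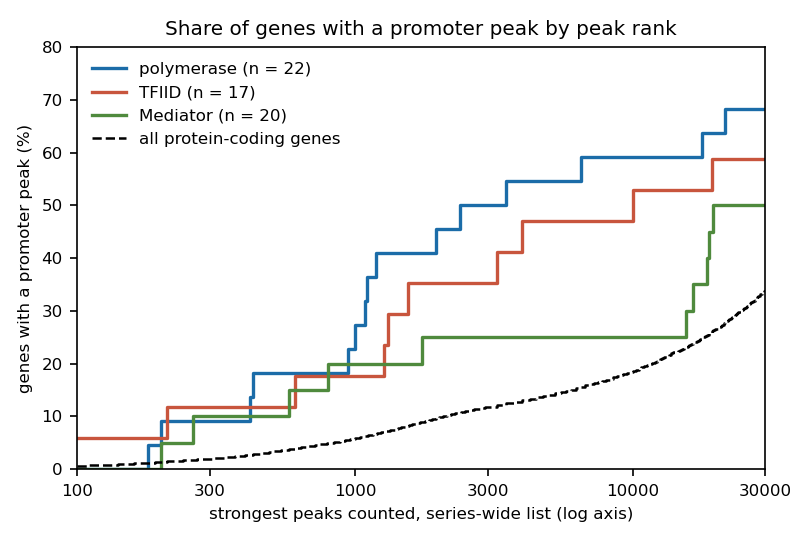
Share of genes with a promoter peak (vertical axis, %) among the strongest peaks of the series-wide list, up to the rank on the log horizontal axis, for the 22 polymerase, 17 TFIID and 20 Mediator genes and for all protein-coding genes. At rank 1000 the shares are 27.3%, 17.6%, 20% and 5.83%, and at rank 3000 they are 50%, 35.3%, 25% and 11.8%.

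The polymerase, TFIID and Mediator genes were then compared by each replicate's own list. Among the strongest 926 peaks, as many as there were reproducible ones, the 59 genes had a promoter peak for 10, 9 and 12 of them in replicates 1, 2 and 3, against 4.72%, 5.22% and 5.70% of all protein-coding genes. As shares this was 17.5% ± 2.59 for the 59 genes and 5.21% ± 0.491 for all genes (SD, n = 3). The polymerase share was 19.7% ± 6.94, TFIID had 17.6% and Mediator 15% in every replicate. These differences between the groups are smaller than the spread of the polymerase share over replicates, and replicate 2 put polymerase (13.6%) below Mediator.

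Among the strongest 2000 peaks the groups lay further apart. Polymerase genes had 37.9% ± 11.4, TFIID genes 31.4% ± 12.2 and Mediator genes 21.7% ± 2.89 (SD, n = 3). The polymerase share was above the Mediator share in 3 of 3 replicates, by 27.3% to 20%, 36.4% to 20% and 50% to 25%, while the ranges of polymerase and TFIID overlapped. Over all protein-coding genes the shares were 6.45%, 8.97% and 10.2% in replicates 1, 2 and 3. Any listed promoter peak in the series-wide list, at whatever rank, was found for 15 of 22 polymerase, 10 of 17 TFIID and 10 of 20 Mediator genes, 59.3% of the 59 against 34.0% of all protein-coding genes. The genes are not replicates of a condition and were chosen with results of these data known, so no test over genes was made.

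**Figure D3:**
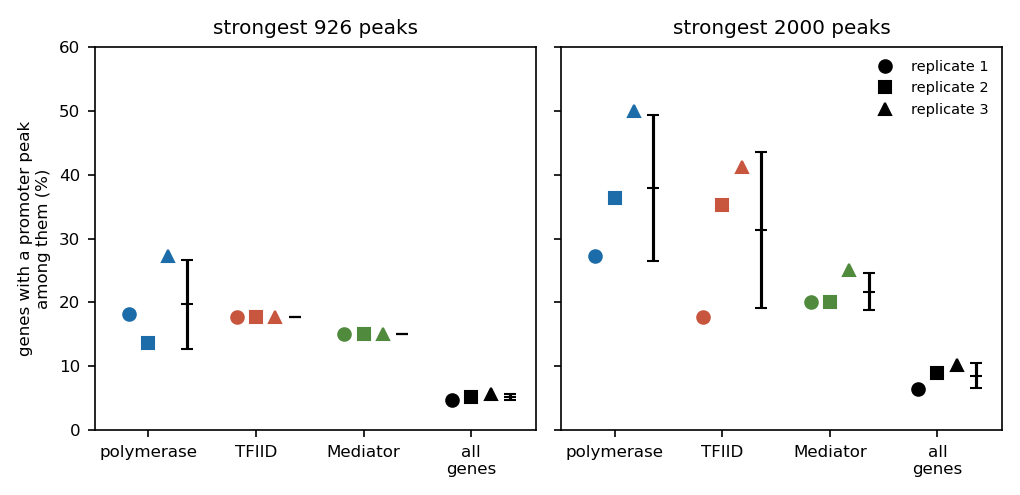
Share of genes with a promoter peak (%) among the strongest 926 (left) and 2000 (right) peaks of each replicate; symbols are replicates, and the bars beside them are mean ± SD over 3 replicates. On the left the groups overlap, with means of 19.7%, 17.6% and 15%, and on the right the polymerase symbols lie above the Mediator symbols of the same replicate.

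The summits at the bound genes lay close to the start and at similar places in each replicate, as the call in part requires. A bound gene had to have a summit from 500 bp upstream to 200 bp downstream, in a series-wide peak that replicate peaks overlap. The median summit position in the series-wide list was 132 bp upstream, from 301 bp upstream (taf-4) to 7 bp downstream (rpb-7). Of the 12 summits, 11 were upstream. For all 1048 bound genes the median was 185 bp. The summits of the 3 replicates lay within 9 bp at rpb-11, 10 bp at rpb-3, 15 bp at taf-6.2 and 16 bp at mdt-22. They were furthest apart at rpb-7, by 66 bp, and at taf-11.3, by 51 bp. A peak was 264 bp wide as a rule in the series-wide list, and the summit was its midpoint in most cases, so these distances are finer than the peaks themselves.

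**Figure D4:**
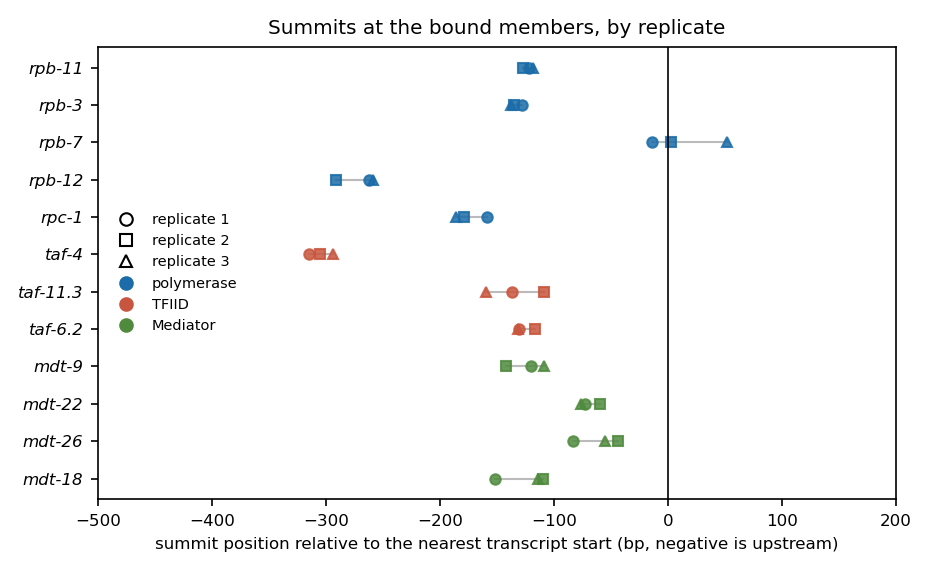
Position of the summit relative to the nearest transcript start (bp, negative is upstream) at the 12 bound genes, with 1 symbol per replicate joined by a grey line. Most summits lie between 50 and 200 bp upstream; those of taf-4 and rpb-12 lie further out and those of rpb-7 on the start.

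The share of bound genes differed with what lay upstream. Of 11 genes whose upstream neighbour started within 1000 bp and ran the other way, 7 were bound (63.6%), against 623 of 3503 such genes in the genome (17.8%). With a peak counted for the nearest start only, 3 of the 11 were bound (27.3%), against 9.88% of such genes in the genome. Of 24 genes that followed a gene on the same strand with a gap of at most 500 bp, as in operons, none was bound. In the genome few such genes were bound either, 112 of 3612. With a share that low, finding none among 24 does not set these members apart from such genes in the genome. Without replicate 1, 4 of these 24 were bound (16.7%, against 6.48% of such genes), and without replicate 2, 1 was (4.17% against 3.74%). The remaining 24 had 5 bound (20.8%, against 2.43% of 12858), and 8 without replicate 1 (33.3% against 4.67%). The neighbour was taken as the nearest protein-coding gene that does not overlap, and this split was chosen after the calls were seen.

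For 5 of the 24 genes that follow another on the same strand, the first gene of the row was bound (20.8%, against 475 of 3612 such genes in the genome, 13.2%). mdt-11 follows wip-1, whose promoter peak ranked 217, 266 and 349, and rpoa-49 follows nfyc-1, a gene of an NF-Y transcription factor subunit, with ranks 253, 219 and 387. rpac-19 follows the ubiquitin-conjugating enzyme gene ubc-7 (468, 699 and 460), mdt-6 follows Y57E12AL.6 (581, 422 and 770) and taf-13 follows ccm-3 (904, 615 and 658). All 15 of these ranks lay within the strongest 926 of their list, but these first genes were picked as bound, a call that itself rests on ranks. Together with the 12 genes bound themselves, 17 of 59 were bound or behind a bound gene (28.8%), against 7.54% of all protein-coding genes. Whether these rows are transcribed as operons is not in the annotation used. The summits lay from 921 bp (mdt-6) to 2929 bp (mdt-11) from the start of the member.

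**Figure D5:**
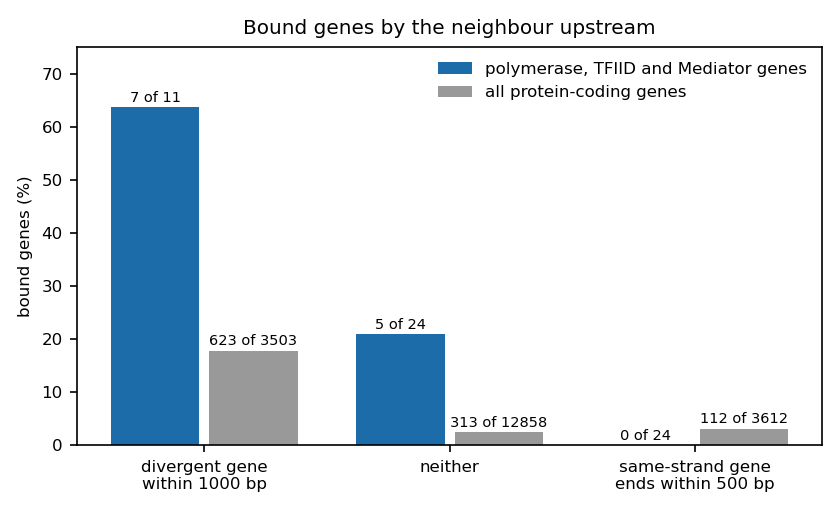
Share of bound genes (%) by what lies upstream, for the 59 polymerase, TFIID and Mediator genes (blue) and all protein-coding genes (grey), with counts above the bars. Members beside a divergent gene had 7 of 11 bound, those behind a same-strand gene 0 of 24 and the rest 5 of 24. Few genes behind a same-strand gene were bound in the genome (112 of 3612), so 0 of 24 does not set the members apart.

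Of the 12 bound genes, 8 shared their peak with the promoter of another protein-coding gene (66.7%, against 56.3% of all bound genes), and the other gene was nearer for 5: rpb-3, rpb-7, taf-11.3, taf-6.2 and mdt-9. The other 4, rpb-11, rpc-1, taf-4 and mdt-22, had the peak to themselves. By chromosome, 4 of 11 genes on chromosome I, 3 of 13 on II, 1 of 14 on III and 4 of 8 on IV were bound, and none of 9 on V and 4 on X. Over all protein-coding genes the shares were 8.30%, 4.90%, 9.39%, 5.73%, 3.02% and 1.94% on I, II, III, IV, V and X. On X, taf-3 and mdt-1.2 had promoter peaks of rank 1268 and 1740 in the series-wide list.

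Genes with neighbouring roles were counted in 3 lists, from which 5 of 56 names had no match in the annotation. Of 9 Mediator genes that carry other names, 2 were bound (22.2%, against 5.25% of all protein-coding genes). sop-3, a gene of the MED1 type, ranked 519, 415 and 248. sur-2, the MED23 gene known from vulval induction, ranked 309, 281 and 521. The kinase-module gene cic-1, which encodes cyclin C, ranked 1442, 2541 and 693 and was not bound, and dpy-22, the MED12 gene, had no listed promoter peak. Both bound genes follow a same-strand neighbour, unlike any bound mdt- gene. Of 26 general transcription factor genes, 3 were bound (11.5%, against 5.25% of all protein-coding genes). cdk-7, the kinase of TFIIH, ranked 91, 86 and 118, and pqn-51, a TFIIA gene, ranked 213, 324 and 331. snpc-3.4, a gene of the small nuclear RNA activating complex, ranked 643, 548 and 830.

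The TATA-binding protein gene tbp-1 was not bound, with promoter peaks of rank 13145 in the series-wide list and 21587 in replicate 3 and none in replicates 1 and 2, and the TFIIB gene ttb-1 ranked 717, 2283 and 1230. Of 16 elongation factor genes, 2 were bound (12.5%, against 5.25% of all protein-coding genes), both for subunits of the PAF1 complex. pafo-1 ranked 308, 494 and 348, and cdc-73 ranked 2577, 1542 and 1573. At an IDR of 0.01, 1 of the 16 was bound, against 4.47% of all protein-coding genes. Without replicate 1 the counts were 4 of 9 other Mediator, 7 of 26 general factor and 5 of 16 elongation factor genes, against 9.21%. Without replicate 2, 5 of the 26 general factor genes were bound, against 5.87%.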

How the data were processed

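The authors deposited peak lists on ce11 that hold peaks and background as input for IDR, 1 per replicate and 1 from the alignments of all 3 replicates, per the deposited records. Each also drew on 1 further file, the same for all 4 lists, which the records also list for the control-normalized signal. Which aligner and peak caller were used is not stated in the records. The signal value the authors deposited for each peak (column 7), on the caller's own scale, served to order the peaks of 1 list and nothing else. Their deposited q value was treated as a score, because some are below 0. Each list holds 30000 peaks, and depth is unknown. Lists on ce10 were not used.

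From each replicate, the strongest of the peaks that shared at least 1 bp with a series-wide peak was paired with it. The IDR model was fitted to 6511, 7012 and 6127 matched peaks for replicates 1 and 2, 1 and 3, and 2 and 3, and 926 peaks passed in all pairs, 756 of them at promoters. The fit and the assignment of peaks to genes were tested on simulated data. Genes are from Ensembl release 115. Python 3.11.15, numpy 2.4.6, pandas 2.3.3 and scipy 1.17.1 were used.

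Members and lists were chosen with earlier results of these data known. The text names each bound member, each with a promoter peak among the strongest 2000 of a replicate, and each with none in any list; others are named where their role made them of interest. In the IDR fit, tied signal values were put in a seeded random order, while in the ranks given here tied peaks share a rank. A gene's rank in a replicate is that of its strongest promoter peak there, so the replicate ranks of a gene can belong to different sites. Alternatives changed the IDR threshold, matching, promoter size, gene assignment and the replicate pairs required to pass.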

Additional observations from a re-analysis of the deposited data

How the results depend on the processing

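No paired analysis was possible because the labels give 1 group. Over 10 alternatives, 34 of 40 counts of bound genes (all 59, polymerase, TFIID and Mediator) stayed within 1.5 times the value given. The exceptions came from 2 settings. Without replicate 1 the counts were 20, 9 and 7 for all 59, polymerase and TFIID. With the nearest start only they were 7, 3 and 1. Leaving out each replicate in turn gave 12 to 20 of the 59, 5 to 9 polymerase genes, 3 to 7 TFIID genes and 4 Mediator genes. Leaving out a replicate dropped its pairs from the call and kept the series-wide list of all 3 replicates. The 12 bound genes remained bound with matching by summits within 100 bp and among the top 2000 of every replicate. The call itself fixes that they stay bound without any 1 replicate, at an IDR of 0.1 and with a promoter of 1000 bp upstream. The last setting added mdt-19, taf-12 and mdt-6. A promoter of 250 bp upstream lost taf-4 and rpb-12, an IDR of 0.01 lost rpc-1, and the nearest start lost 5 genes. The cause of the replicate 1 effect was not tested. Depth is unknown, so a missing peak is not shown to be missing binding.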
